A study of Sus scrofa with 12 samples.

Results

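Transcript levels of 10 genes of semaphorin signaling were examined in porcine arterial endothelial cells (ECs) kept under 3 levels of wall shear stress (WSS). The genes were the semaphorins SEMA3A, SEMA3C, SEMA3F, SEMA3G, SEMA6A, SEMA6B and SEMA7A, the plexins PLXND1 and PLXNA2, and the neuropilin NRP2. They were found by symbol among the 21153 genes of the count table and are 10 of the 31 semaphorin, plexin and neuropilin genes listed here. Because the set was chosen on measured values of the comparisons of 2 and 80 dyne/cm2 with 30 dyne/cm2, the values of these 10 genes are a description and carry no test.

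Semaphorins are secreted or membrane-bound guidance proteins, first known from growing axons, that also steer the growth and shape of blood vessels. Class 3 semaphorins are secreted and mostly act through a complex of a neuropilin, which binds the ligand, and a plexin, which carries the signal into the cell. There, plexins act on small GTPases, integrin adhesion and the actin cytoskeleton, and in ECs this commonly ends in loss of adhesion or retraction. Class 6 semaphorins span the membrane and bind A-type plexins directly, and SEMA7A is held at the cell surface by a glycolipid anchor.

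Primary arterial ECs of 3 pigs were cultured under laminar flow for 48 h at 2 dyne/cm2 (low aneurysmal WSS), 30 dyne/cm2 (physiological WSS) or 80 dyne/cm2 (supra-high aneurysmal WSS), and no agent was given besides the flow. Every donor gave 1 culture at 2, 1 at 80 and 2 at 30 dyne/cm2, so that 4 groups of 3 libraries resulted. The first set at 30 dyne/cm2 (set 1) was taken as the control of 2 dyne/cm2 and the second (set 2) as that of 80 dyne/cm2, from the sample numbers, since the labels do not state it outright. Values against the other set are given for some of the genes only. All cells grew in DMEM with fetal calf serum and heparin on gelatin. The model is a layer of cultured ECs without the stretch of a vessel wall. The labels call the cells aortic, the methods name coronary arteries of 8-month-old pigs, and the labels give cultures at 80 dyne/cm2 and their controls another slide type and seeding density than the methods name.

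The libraries held 29606854 to 41058902 reads on genes. All 7 measured genes of a list of 9 EC markers averaged at least 1 CPM (counts scaled to a common library size) in every group. Their summed level was 4699 to 5654 CPM at 2 dyne/cm2, 6806 to 7793 and 6417 to 7463 CPM in sets 1 and 2, and 8126 to 8250 CPM at 80 dyne/cm2. The single EC markers moved unevenly at 2 dyne/cm2. Log2 fold changes from edgeR were -2.95 for TEK, -1.27 for KDR, -0.71 for PECAM1 and -0.56 for ESAM. They were only -0.22 for ERG, -0.18 for TIE1 and -0.11 for CDH5. The 8 markers of smooth muscle cells and fibroblasts summed to 11.3 to 67.2 CPM at 2 dyne/cm2, 3.38 to 19.2 and 2.91 to 15.8 CPM in sets 1 and 2, and 3.07 to 11.5 CPM at 80 dyne/cm2. The median of this sum was 16.8 CPM at 2 dyne/cm2 and 17.0 CPM in set 1. DES was at 0 in all libraries, and PDGFRB, DCN and COL1A1 were higher than set 1 in all 3 donors at 2 dyne/cm2, with means of 4.36, 2.25 and 18.2 CPM against 0.798, 0.366 and 4.12 CPM. COL1A1 was at 49.3, 2.665 and 2.55 CPM there, so that donor 1 carried its mean. The means of LUM (6.15 against 7.35 CPM) and CNN1 (0.0440 against 0.0678 CPM) were lower. Those of ACTA2 (0.235 against 0.0994 CPM) and MYH11 (0.567 against 0.401 CPM) were higher. Of 5 lymphatic markers, 2 averaged 1 CPM or more at 2 dyne/cm2, 1 in set 1 and 0 in the other groups, and their sum reached at most 6.58 CPM. Of 6 leukocyte markers 2 did so in every group, and their sum reached at most 28.3 CPM. The EC marker sum moved in the same direction as most of the 10 genes. PDGFRB, DCN and COL1A1 moved in the opposite one, unlike LUM and CNN1 at 2 dyne/cm2. The part of these markers in the values was not tested. In RNA of a whole culture, fewer cells of a kind and less RNA per cell cannot be told apart.

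Under low WSS most members, ligands and receptors alike, were below their level at 30 dyne/cm2, and SEMA6B was above it. Under supra-high WSS the differences were smaller for most members, and SEMA7A and SEMA3F were above their control in every donor without overlap. Within each donor, the log2 difference of CPM + 0.1 between a condition and its control was taken. Of the 10 genes, 8 were lower in all 3 donors and 1 was higher in all 3, where 33.5% and 32.5% of 11226 genes were so. The libraries at 2 dyne/cm2 lay wholly below those of set 1 for 6 genes and wholly above for 1. Of all genes tested, 19.5% and 18.3% were apart in these directions. The shares in this paragraph are over genes that passed the filter of at least 1 CPM in at least 3 libraries. SEMA3A and SEMA6A, both among the 6 genes, did not pass it. The median of the mean differences was -0.89 over the 10 genes and 0.00 over all genes. Under supra-high WSS, 6 genes were higher and 0 were lower in all 3 donors, where 23.2% and 26.4% of 11187 genes were so. The groups were apart for 2 genes, both higher, with 7.61% of all genes apart upward and 7.34% downward, and the median was 0.31 against -0.02 over all genes. For 9 of the 10 genes the mean differences at 2 and at 80 dyne/cm2 had opposite signs, as had 65.0% of 11042 genes. Since these contrasts chose the genes, nothing is read from such counts.

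**Figure D1:**
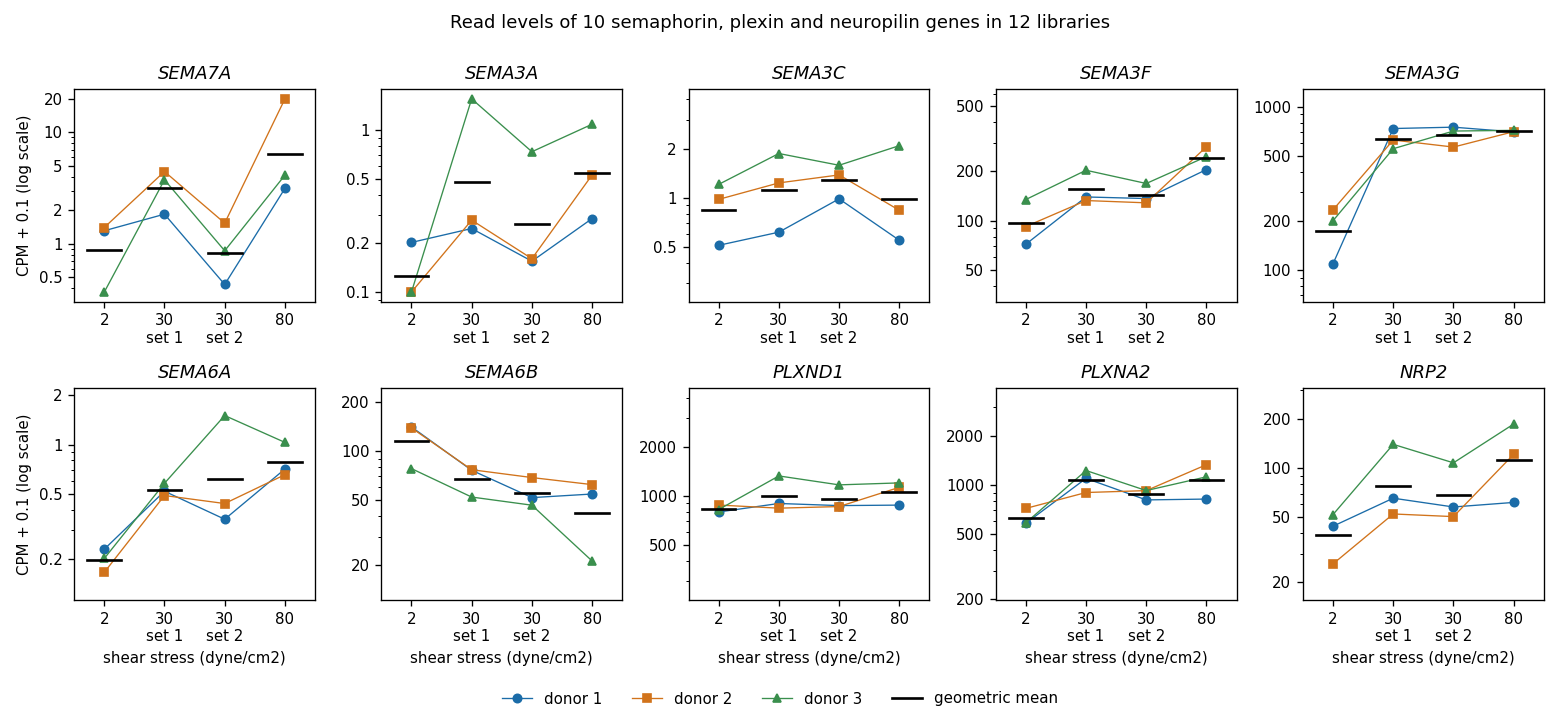
CPM + 0.1 on a log axis (vertical) for each of the 10 genes at 2, 30 (sets 1 and 2) and 80 dyne/cm2 (horizontal); symbols and lines are the 3 donors and black bars the geometric mean of 3 libraries. SEMA3G is at 109 to 234 CPM in the libraries at 2 dyne/cm2 and at 553 to 749.7 CPM in the other 9, and SEMA3F is higher at 80 dyne/cm2 than at 2 and 30 dyne/cm2 in every donor.

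Of the secreted ligands, SEMA3G was far lower at low WSS and level across the other groups. SEMA3G (ENSSSCG00000011440), a class 3 semaphorin known from ECs and smooth muscle that binds NRP2, lies on chromosome 13 at 34574014 to 34585686 of Sscrofa11.1. It was at 109, 234 and 200.5 CPM in donors 1, 2 and 3 at 2 dyne/cm2. In set 1 it was at 735.5, 625 and 553 CPM, in set 2 at 749.7, 566 and 709.8 CPM, and at 80 dyne/cm2 at 701, 704 and 717 CPM. All libraries at 2 dyne/cm2 therefore lay below all others, whereas the other 3 groups overlapped. The within-donor log2 difference at 2 dyne/cm2 was -1.88 ± 0.76 (SD, n = 3), a 3.68-fold lower geometric mean, and donor 1 alone had -2.75. At 80 dyne/cm2 it was 0.08 ± 0.21, and between the sets at 30 dyne/cm2 it was 0.08 ± 0.26. Of the variance of SEMA3G over the 12 libraries on the log2 scale, 91.0% lay between conditions and 0.345% between donors.

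SEMA3F (ENSSSCG00000011398), a secreted ligand that signals mainly through NRP2 and was described as an inhibitor of vessel growth, was graded with WSS. Its gene is on the same chromosome at 32641376 to 32671231, 1.90 Mb from SEMA3G. Its levels were 71.6, 92.0 and 135 CPM under low WSS, and 205.5, 283 and 247 CPM under supra-high WSS. In the 6 libraries at 30 dyne/cm2, it was at 140, 133 and 203 CPM in set 1 and at 136.5, 128.5 and 169 CPM in set 2. In all 3 donors the level at 2 dyne/cm2 was under both cultures at 30 dyne/cm2, and these were under 80 dyne/cm2. That order holds for 4.73% of 11568 genes and the reverse order for 4.41%. The log2 differences were -0.70 ± 0.23 at 2 and 0.76 ± 0.33 at 80 dyne/cm2 (SD, n = 3). The groups overlapped at 2 dyne/cm2, where donor 3 lay between donors 1 and 2 of set 1, and were apart at 80 dyne/cm2. Between the sets at 30 dyne/cm2 the log2 difference was only -0.12 ± 0.13.

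SEMA3A (ENSSSCG00000015398; chromosome 9 at 95934937 to 96387950), the founding repellent ligand of the class, which uses NRP1 as its receptor, was near the detection limit. It had 4, 0 and 0 reads at 2 dyne/cm2 and 6, 6 and 49 reads in set 1. In set 2 it had 2, 2 and 25 reads, and at 80 dyne/cm2 it had 7, 14 and 32 reads. Donor 3 held most of the reads at 30 dyne/cm2 and none at 2 dyne/cm2. No fold is given at 2 dyne/cm2, where the reads summed to 4 over the 3 libraries against 61 in set 1. Under supra-high WSS, 53 reads stood against 29 in set 2, and the log2 difference was 1.05 ± 0.60 (SD, n = 3) with overlapping groups. Set 2 was below set 1 in all 3 donors by a log2 difference of -0.85 ± 0.21, nearly as large as the difference at 80 dyne/cm2. Against set 1, the difference at 80 dyne/cm2 was 0.20 ± 0.72, with donor 3 lower.

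SEMA3C (ENSSSCG00000023784; chromosome 9 at 99114649 to 99432683), a secreted ligand that can promote as well as restrain vessel growth, differed more between donors than between conditions. It was at 0.412, 0.878 and 1.11 CPM at 2 dyne/cm2, and at 0.516, 1.13 and 1.77 CPM in set 1. In set 2 its levels were 0.885, 1.28 and 1.48 CPM, and at 80 dyne/cm2 they were 0.449, 0.738 and 1.98 CPM. Donor 1 was lowest and donor 3 highest in every group, and 75.5% of the variance over the 12 libraries lay between donors against 12.4% between conditions. The log2 difference was -0.41 ± 0.19 at 2 dyne/cm2, lower in all 3 donors with overlapping groups. Under supra-high WSS it was -0.39 ± 0.68, with donor 3 higher and the other 2 donors lower. These levels rest on 16 to 64 reads per library.

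The class 6 genes differed in opposite directions at low WSS. SEMA6B (ENSSSCG00000035176; chromosome 2 at 74262303 to 74296386), a membrane ligand of A-type plexins, was the member with a higher level at 2 dyne/cm2, at 140.5, 139 and 78.0 CPM against 76.2, 76.8 and 52.2 CPM in set 1. The groups were apart, with a log2 difference of 0.77 ± 0.17 (SD, n = 3; 1.71-fold). In set 2 it was at 51.8, 68.8 and 46.6 CPM, and at 80 dyne/cm2 at 54.5, 62.3 and 21.1 CPM. Donors 1 and 2 hardly moved at 80 dyne/cm2, and donor 3 dropped by 1.14 on the log2 scale, which gave -0.40 ± 0.64 over the 3 donors. Against the other set at 30 dyne/cm2 the difference at 2 dyne/cm2 was 1.06 ± 0.35. At 80 dyne/cm2 it was -0.70 ± 0.53 against the other set, with all 3 donors lower and overlapping groups.

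SEMA6A (ENSSSCG00000014224; chromosome 2 at 120560095 to 120687597), a ligand of PLXNA2 and PLXNA4 with a described part in EC survival, had 2 to 55 reads per library. It was at 0.129, 0.0650 and 0.101 CPM at 2 dyne/cm2 and at 0.418, 0.387 and 0.479 CPM in set 1. The groups were apart, the reads summed to 10 and 46, and the log2 difference was -1.42 ± 0.21. With 2 to 5 reads per library at 2 dyne/cm2, the levels there were close to the added 0.1 CPM. The size and SD of this difference therefore depend on that constant. Donor 3 stood out in set 2, with 1.404 CPM against 0.249 and 0.335 CPM in donors 1 and 2. In the cultures at 80 dyne/cm2 the levels were 0.608, 0.554 and 0.930 CPM, so that donors 1 and 2 were higher than their control and donor 3 lower (0.35 ± 0.81). Against the other set, the difference at 80 dyne/cm2 was 0.57 ± 0.23, higher in all 3 donors without overlap. In the RefSeq annotation SEMA6A overlaps the long non-coding RNA LOC102165671 and SEMA6B overlaps LOC110259361. The strand setting of the counting is not given in the sources used here, and reads of overlapping genes cannot then be assigned with certainty.

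**Figure D2:**
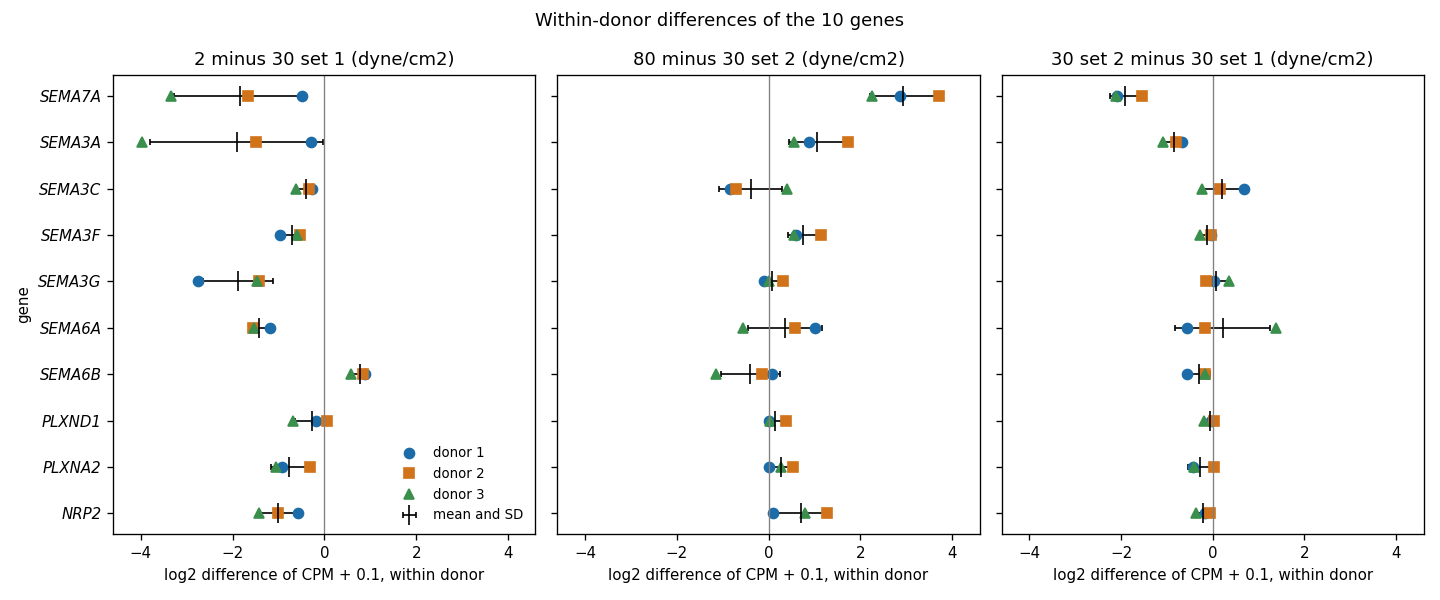
Within-donor log2 differences of CPM + 0.1 (horizontal) of the 10 genes (vertical) for 2 minus 30 dyne/cm2 (set 1), 80 minus 30 dyne/cm2 (set 2) and set 2 minus set 1; symbols are donors, ticks and bars the mean and SD of 3 donors. SEMA7A is the gene with the widest gap between the sets at 30 dyne/cm2 (-1.92), and SEMA6B is the only one with all 3 donors above 0 at 2 dyne/cm2.

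SEMA7A (ENSSSCG00000023165; chromosome 7 at 59094919 to 59119534), a membrane-anchored ligand of integrin α1β1 and PLXNC1 known from inflammation and leukocyte recruitment, had the largest difference of the 10 genes at 80 dyne/cm2. It was at 3.04, 19.9 and 4.03 CPM there, and at 0.332, 1.43 and 0.766 CPM in set 2. The groups were apart and the log2 difference was 2.94 ± 0.73 (SD, n = 3; 7.68-fold), with 891 reads over the 3 libraries against 89. At 2 dyne/cm2 it was at 1.21, 1.30 and 0.268 CPM against 1.74, 4.35 and 3.65 CPM in set 1. These groups were apart too, but the donors ranged from -0.49 to -3.35 on the log2 scale (-1.84 ± 1.43).

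The 2 control sets of SEMA7A differed as much as a condition did. Set 2 was below set 1 in all 3 donors, by a log2 difference of -1.92 ± 0.33, and the sets did not overlap. Against the other set, the difference at 80 dyne/cm2 was 1.02 ± 1.04, still higher in all 3 donors but with overlapping groups. At 2 dyne/cm2 it turned to 0.08 ± 1.43, with 1 donor higher and 2 lower. The order of the group means was thus 80 dyne/cm2, set 1, 2 dyne/cm2 and set 2, and the ranges of neighboring groups overlapped except between set 1 and 2 dyne/cm2. Of the 10 genes, 5 were lower in set 2 in all 3 donors, against 22.2% of 11163 genes, and the median difference was -0.16. With edgeR's quasi-likelihood test, 1 gene of all (0.00896%) differed at least 2-fold between the sets with an adjusted p under 0.05, and 2146 had an unadjusted p under 0.05. DESeq2 called 66.

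Among the receptors that are members of the set, PLXND1 varied least. PLXND1 (ENSSSCG00000011592; chromosome 13 at 68946658 to 68996625), the EC plexin that patterns vessels in development and has been described as a sensor of flow, was at 797.5, 879.6 and 825 CPM at 2 dyne/cm2 and at 899, 842 and 1326 CPM in set 1. In set 2 it was at 873, 861 and 1169 CPM, and at 80 dyne/cm2 at 879, 1129 and 1202 CPM. Its highest and lowest libraries were 1.66-fold apart. The log2 differences were -0.26 ± 0.38 at 2 dyne/cm2, where donor 2 went up, and 0.15 ± 0.21 at 80 dyne/cm2. The groups overlapped in both comparisons. Of its variance, 42.4% lay between donors and 28.4% between conditions.

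PLXNA2 (ENSSSCG00000026412; chromosome 9 at 134584760 to 134800471), a receptor of class 6 semaphorins and, with a neuropilin, of class 3, was lower at low WSS. It was at 584.5, 721 and 588 CPM at 2 dyne/cm2 and at 1100, 902 and 1229 CPM in set 1, without overlap. The log2 difference was -0.77 ± 0.39 (SD, n = 3; 1.70-fold lower). In set 2 the levels were 812, 926 and 927 CPM, and against that set the difference at 2 dyne/cm2 was -0.50 ± 0.15, again without overlap. Under supra-high WSS it was at 822, 1335 and 1125 CPM, higher than set 2 in all 3 donors by 0.27 ± 0.26, and donor 1 by only 0.02. Against set 1, the difference at 80 dyne/cm2 was 0.01 ± 0.51.

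NRP2 (ENSSSCG00000026383; chromosome 15 at 108974246 to 109092316) is the neuropilin that binds SEMA3F and SEMA3G as well as VEGF-C. Like SEMA3F and most other members, it had a negative mean difference at 2 and a positive one at 80 dyne/cm2. It was at 44.1, 25.9 and 51.9 CPM at 2 dyne/cm2 and at 65.5, 52.4 and 140 CPM in set 1. The groups were narrowly apart, since the highest library at 2 dyne/cm2 lay just under the lowest of set 1, and the log2 difference was -1.004 ± 0.429 (SD, n = 3; 2.01-fold lower). In set 2 it was at 57.8, 50.5 and 108 CPM, and at 80 dyne/cm2 at 61.7, 122 and 186 CPM. All 3 donors were higher at 80 dyne/cm2 than in set 2, by 0.72 ± 0.59, but donor 1 by only 0.09, and the groups overlapped. Against the other set, the difference at 2 dyne/cm2 was -0.80 ± 0.36 with overlapping groups. At 80 dyne/cm2 it was 0.51 ± 0.66, with donor 1 lower. Donors differed widely, and 36.7% of the variance lay between them.

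NRP1, the receptor of SEMA3A and a co-receptor of VEGF-A, did not follow NRP2. NRP1 was at 72.5, 47.1 and 89.9 CPM at 2 dyne/cm2 and at 73.7, 54.5 and 101.5 CPM in set 1. Its log2 fold change from edgeR was -0.13 (SE 0.08, adjusted p = 0.269) at 2 dyne/cm2. It was at 62.4, 58.6 and 72.2 CPM at 80 dyne/cm2 and at 77.2, 68.7 and 93.5 CPM in set 2, a log2 fold change of -0.29 (SE 0.08, adjusted p = 0.0688). The log2 difference of NRP2 minus that of NRP1 was -0.87 ± 0.36 under low WSS and 1.02 ± 0.56 under supra-high WSS (SD, n = 3), and -0.30 ± 0.08 between the sets at 30 dyne/cm2. It had the same sign in all 3 donors in each of these comparisons.

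**Figure D3:**
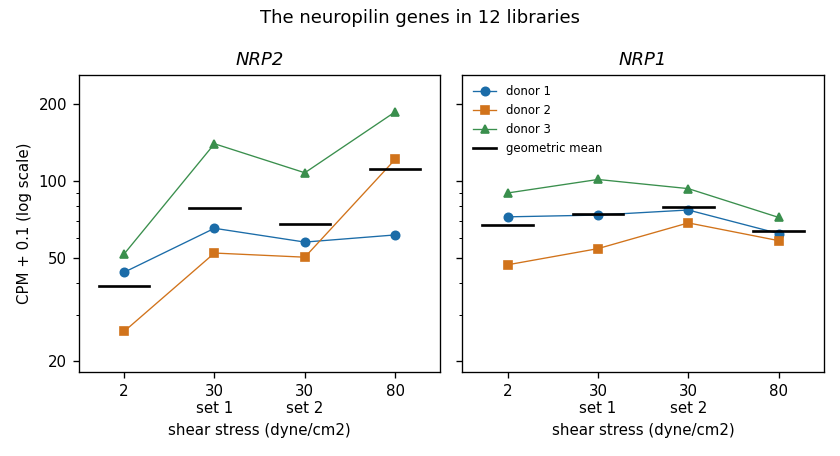
CPM + 0.1 on a log axis (vertical) of NRP2 and NRP1 at 2, 30 (sets 1 and 2) and 80 dyne/cm2 (horizontal), with 3 donors as symbols and the geometric mean as a black bar. NRP2 spans 25.9 to 186 CPM over the 12 libraries, whereas NRP1 stays between 47.1 and 101.5 CPM.

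For the 3 members with the largest mean absolute difference, the genes with the most similar course over the 12 libraries were looked up among 9914 genes. Likeness was the root mean square distance of log2 CPM + 0.1 after centering on each donor. SEMA3G was closest to ASS1, the citrulline-recycling enzyme of nitric oxide synthesis (distance 0.177), FSTL1 (0.186) and DAPK1 (0.194). SEMA7A was closest to DHRS9 (0.448), RGS16 (0.494) and EMCN, which codes for the EC surface protein endomucin (0.546). SEMA3A was closest to ARHGAP22 (0.228), RGS16 again (0.313) and TM4SF18 (0.328). At 2 dyne/cm2 SEMA3A had 4, 0 and 0 reads. Its place among these 3 members and its course therefore rest in large part on the added 0.1 CPM. The 9914 genes averaged at least 1 CPM, a level that the mean of SEMA3A did not reach in any group. DHRS9 had log2 differences of -2.16 and 2.44 at 2 and 80 dyne/cm2, and of -1.70 between the sets at 30 dyne/cm2, which like SEMA7A were lower in set 2. All these points share the 12 libraries, so the distances are descriptions.

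Other genes of the pathway were taken from 5 lists with 82 genes, of which 79 had an identifier in the table. Unlike the 10 members, these genes were tested, by edgeR's quasi-likelihood test with a donor term and Benjamini-Hochberg adjustment over all genes tested. A gene was called when it changed by at least 2-fold at an adjusted p under 0.05. At 2 dyne/cm2, 6 of 66 tested genes rose and 7 fell, where 5.06% of all genes rose and 4.54% fell. A further 8 and 14 genes passed the adjusted p with smaller rises and falls. Under supra-high WSS, 1 of 63 rose and 2 fell, where 1.14% and 1.05% of all genes did. Smaller rises and falls passed the adjusted p there in 8 and 1 genes. Between the sets at 30 dyne/cm2, edgeR called 0 of 63 and DESeq2 0, and 18 had an unadjusted p under 0.05. The response at 80 differed from that at 2 dyne/cm2 (adjusted p under 0.05, 12 libraries) in 38 of 68 genes, against 37.1% of all genes. It lay above the response at 2 dyne/cm2 in 28 of them and below it in 10. A change at 2 dyne/cm2 alone can also give such a difference.

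In the list of the other 13 semaphorins, 8 were tested at 2 dyne/cm2. SEMA4G rose (log2 fold change 1.13, SE 0.17, adjusted p = 0.0146) and SEMA4C, a ligand of PLXNB2, fell (-1.01, SE 0.13, adjusted p = 0.0107). Neither passed in the fit without the donor term (replicate block), with adjusted p = 0.110 and 0.0859. SEMA3B, 65869 bp from SEMA3F, had log2 fold changes of -0.58 (adjusted p = 0.0491) at 2 and 0.61 (adjusted p = 0.0389) at 80 dyne/cm2, under the 2-fold mark in both, and without the block the adjusted p was 0.0698 and 0.722. SEMA3B was looked at for its place beside SEMA3F, after its values were seen. SEMA3E, 0.294 Mb from SEMA3A, had 0 reads in all 12 libraries. Under supra-high WSS edgeR and DESeq2 called 0 of 8, of which 2 had an unadjusted p under 0.05 in edgeR. These 2 also passed the adjusted p, with rises under 2-fold. Against the other set at 30 dyne/cm2, the log2 fold changes at 2 dyne/cm2 were 0.89 for SEMA4G and -0.59 for SEMA4C, under the 2-fold mark.

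Of the other 8 plexins and neuropilins, 2 rose at low WSS and 2 of 7 tested fell at supra-high WSS. PLXNB3 rose 4.17-fold at 2 dyne/cm2 (log2 fold change 2.06, SE 0.19, adjusted p = 0.00613) and fell at 80 dyne/cm2 (-1.19, SE 0.18, adjusted p = 0.0116). PLXNC1 rose (1.41, SE 0.27, adjusted p = 0.0233) from 0.368, 0.447 and 0.449 CPM in set 1 to 1.24, 0.975 and 1.14 CPM. PLXNA4, a co-receptor of class 3 semaphorins, fell at 80 dyne/cm2 (-1.25, SE 0.28, adjusted p = 0.0385). Without the replicate block PLXNC1 passed (adjusted p = 0.0296), though not in DESeq2 with the donor term (0.0528), and PLXNB3 at 2 (0.134) and at 80 dyne/cm2 (0.787) and PLXNA4 at 80 dyne/cm2 (0.875) did not. PLXNA4 also missed the threshold in DESeq2 (0.0601). Against the other set, the adjusted p was 0.0509 for PLXNC1 at 2 dyne/cm2, and 0.480 for PLXNB3 (log2 fold change -0.45) and 0.702 for PLXNA4 (-0.39) at 80 dyne/cm2. At low WSS, the log2 fold change of PLXNA4 was -0.22 against its own set and -1.12 (adjusted p = 0.0254) against the other.

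SEMA7A was lower than set 1 in all 3 donors at low WSS, and 2 genes of its receptors, PLXNC1 and ITGA1, rose there. Against set 2 the log2 difference of SEMA7A at low WSS was 0.08 ± 1.43 with overlapping groups, so its lower level was seen against set 1 only. The integrin subunit gene ITGA1 rose from 12.04, 10.6 and 7.39 CPM in set 1 to 35.8, 25.9 and 72.1 CPM at 2 dyne/cm2 (log2 fold change 2.03, SE 0.42, adjusted p = 0.0277; 0.0287 without the block). ITGA1 was at 13.4, 15.4 and 21.3 CPM in set 2 and at 8.28, 9.38 and 15.1 CPM at 80 dyne/cm2 (-0.62, SE 0.11, adjusted p = 0.0180; 0.642 without the block), under the 2-fold mark. The control sets of ITGA1 did not overlap, with set 2 above set 1 by a within-donor log2 difference of 0.73 ± 0.70. Against the other set, this difference was 0.10 ± 0.82 at 80 dyne/cm2 with overlapping groups, and 1.31 ± 0.51 at 2 dyne/cm2 without overlap. For its partner subunit ITGB1 the log2 fold change at low WSS was -0.43 (SE 0.12, adjusted p = 0.0506). PLXNC1 was too low at 80 dyne/cm2 to enter the test, at 0.661, 0.400 and 0.775 CPM against 0.387, 0.427 and 0.740 CPM. The difference between the responses passed for both PLXNC1 (-1.17, SE 0.41, adjusted p = 0.0493) and ITGA1 (-2.63, SE 0.45, adjusted p = 0.00194), and only ITGA1 passed without the block (adjusted p = 0.00943, against 0.150 for PLXNC1). Each response was taken against its own set, so the gap between the sets enters this difference.

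**Figure D4:**
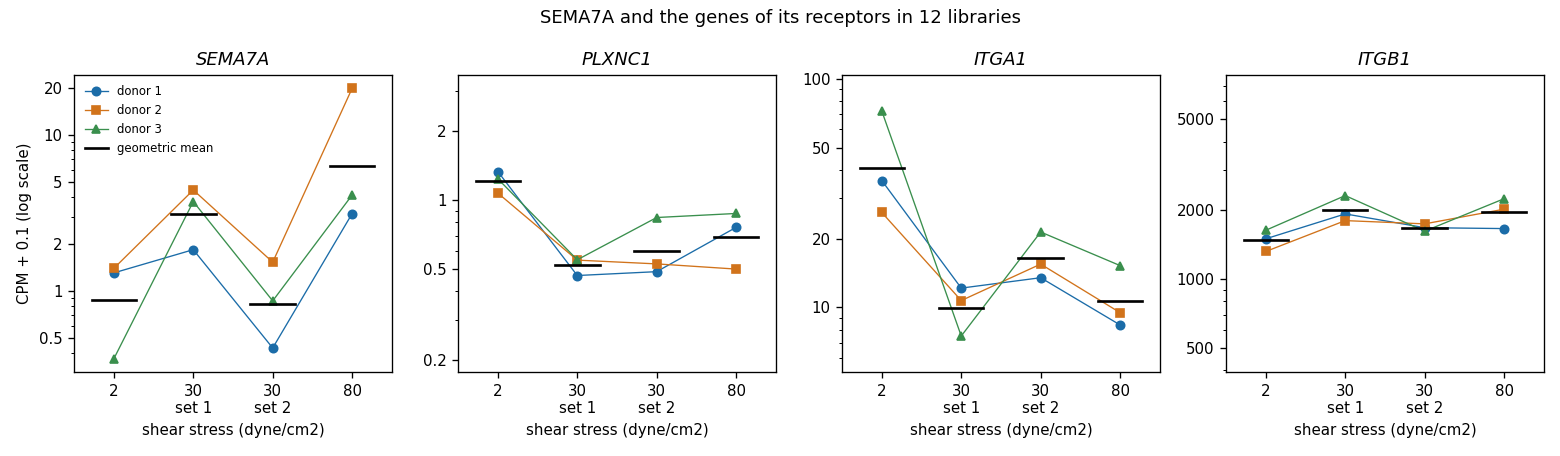
CPM + 0.1 on a log axis (vertical) of SEMA7A, PLXNC1, ITGA1 and ITGB1 at 2, 30 (sets 1 and 2) and 80 dyne/cm2 (horizontal), with 3 donors as symbols and the geometric mean as a black bar. ITGA1 and PLXNC1 are above set 1 in every donor at 2 dyne/cm2, where SEMA7A is below it. Against set 2, SEMA7A at 2 dyne/cm2 overlaps.

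In the list of 12 partner receptors, 9 were tested at 2 dyne/cm2, and 2 rose and 1 fell. Besides ITGA1, FLT4 rose, the VEGF-C receptor that pairs with NRP2 (log2 fold change 1.42, SE 0.31, adjusted p = 0.0314; 0.0724 without the block). FLT4 is also one of the lymphatic markers and was at 2.03, 1.69 and 3.49 CPM there. FLT1, the VEGF receptor that competes for VEGF-A, fell (-1.39, SE 0.11, adjusted p = 0.00441), and had -0.88 against the other set. Under supra-high WSS both tools called 0 of 8, of which 3 had an unadjusted p under 0.05. In edgeR, 1 rise and 1 fall passed the adjusted p under the 2-fold mark.

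The 42 cytoplasmic effectors held 34 tested genes at 2 dyne/cm2, of which 1 rose and 4 fell. MRAS, of the Ras family on which the plexin GAP domain acts, fell (log2 fold change -2.19, SE 0.11, adjusted p = 0.00293), as did MICAL1, the enzyme that oxidizes actin downstream of plexins (-1.08, SE 0.13, adjusted p = 0.00924). The kinase gene FYN (-1.05, SE 0.08, adjusted p = 0.00403) and DPYSL3, of the collapsin response mediator family (-1.77, SE 0.10, adjusted p = 0.00329), fell too. Without the replicate block the adjusted p was 0.132 for FYN and 0.106 for DPYSL3, and MRAS and MICAL1 passed. In MICAL1 the log2 fold change was -0.91 against the other set. Under supra-high WSS both tools called 0 of 33, of which 8 had an unadjusted p under 0.05. In edgeR, 2 genes passed the adjusted p with rises under 2-fold.

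All 7 processing enzymes, which cut semaphorins or shed their receptors, differed between the responses. In each, the response at 80 lay above that at 2 dyne/cm2, as in 17.9% of all 11568 genes. Without the replicate block PCSK6 was lost from this difference (adjusted p = 0.102). At 80 dyne/cm2 against its own set, 1 enzyme rose, 3 passed the adjusted p with rises under 2-fold and 3 did not pass. At 2 dyne/cm2, 1 fell, 4 passed with falls under 2-fold and 2 did not pass. ADAMTS1 fell at 2 dyne/cm2 (log2 fold change -5.75, SE 0.26, adjusted p = 0.00290) and rose at 80 dyne/cm2 (2.81, SE 0.34, adjusted p = 0.00618; 0.522 without the block). ADAMTS1 was at 165, 155 and 78.0 CPM in set 1 and at 7.33, 35.3 and 32.8 CPM in set 2, so that its controls did not overlap either (-2.52, SE 0.59, adjusted p = 0.139), and against the other set its log2 fold change at 80 dyne/cm2 was 0.22 (adjusted p = 0.902). FURIN, the protease that cleaves class 3 semaphorins, is named for its role after its values were seen. FURIN had log2 fold changes of -0.81 (adjusted p = 0.0158) at 2 and 0.47 (adjusted p = 0.0367) at 80 dyne/cm2, and without the block these p were 0.0190 and 0.438.

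**Figure D5:**
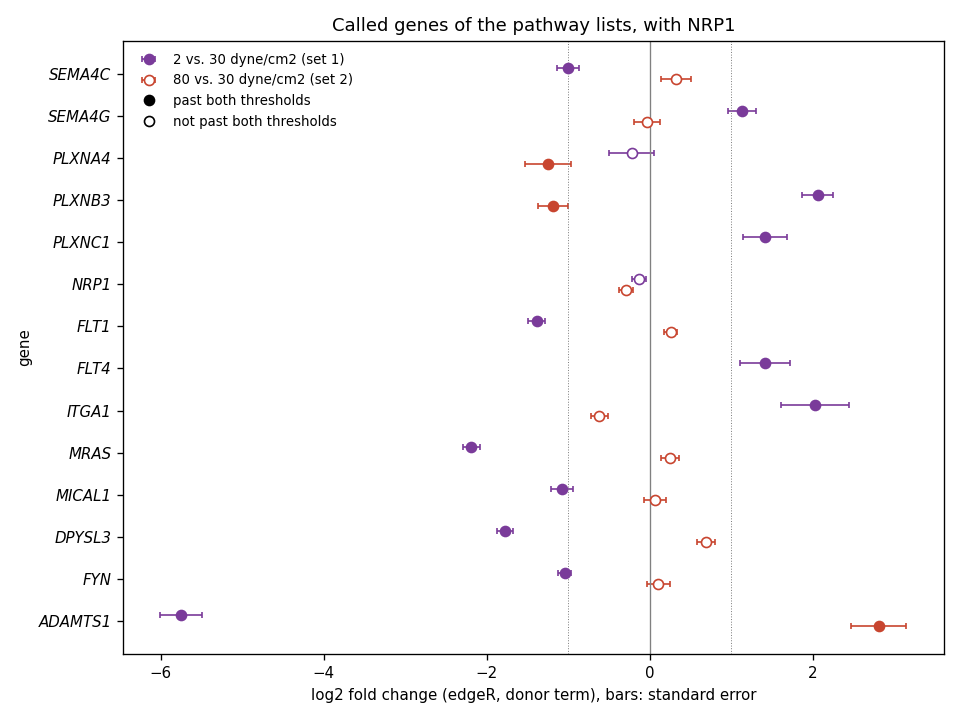
Log2 fold changes from edgeR with the donor term (horizontal) and their standard errors for the called genes of the 5 pathway lists that are reported here and NRP1 (vertical), at 2 and 80 dyne/cm2 against their own set at 30 dyne/cm2; filled points are past the 2-fold and adjusted p thresholds, and a gene without a point at 80 dyne/cm2 was too low to be tested. PLXNB3 rises at 2 and falls at 80 dyne/cm2, and ADAMTS1 falls at 2 and rises at 80 dyne/cm2.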

How the data were processed

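RNA of 12 cultures was sequenced with reads of 100 nt. The authors mapped them to Sscrofa11.1 with STAR 2.4, and counted reads per gene with featureCounts 1.4.6, without normalization. The deposited values are raw counts of 21153 genes, of which 14572 (68.89%) were given a symbol. Positions are those of RefSeq for the same assembly. No gene length was used, so levels are not compared between genes.

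CPM used TMM library sizes over the 12 libraries (R 4.3.3, edgeR 4.0.16). Members are described by log2 (CPM + 0.1) within donors. Other genes were tested by edgeR's quasi-likelihood test with a donor term, in 6 libraries per comparison, on genes of at least 1 CPM in at least 3 libraries, which stands in for an RPKM limit. Of the 10 members, 8 passed this filter, and SEMA3A and SEMA6A did not. Controls were taken from the sample numbers in the labels. Replicate numbers mark donors: after removal of group means, the 18 pairs with the same number had r of 0.672 to 0.876 over 11568 genes and the 36 others -0.552 to -0.189. The 3 libraries of a group come from 3 donors, which sets the precision of every mean.

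The members and lists were chosen with earlier results of these data known. Named were all members, every listed pathway gene called in either comparison, NRP1, and for the 3 members with the largest differences the 3 nearest genes. A gene that this rule names is not reported here. Alternatives were RLE normalization, DESeq2 1.42.0, no filter, a minimum of 10 counts in each library, no replicate block, dispersion from 12 libraries, the other set at 30 dyne/cm2, the adjusted p alone, a pseudocount of 1 CPM and each replicate left out. Of the symbols written, 6 had no identifier (VWF, EGFL7, THBD, RRAS2, MICAL2, CDK5). The list of 3 measured flow markers (KLF2, KLF4, NOS3) summed to 265 to 527 CPM at 2 dyne/cm2 and to 965 CPM or more elsewhere.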

Additional observations from a re-analysis of the deposited data

Results flagged for a closer look

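ADAMTS1 and PLXNB3 were called in both comparisons in opposite directions, and the difference of the responses passed in 1 model over 12 libraries (quasi-likelihood test of edgeR, adjusted by Benjamini-Hochberg). The response at 80 minus that at 2 dyne/cm2 was 8.73 (log2, SE 0.98, adjusted p = 0.000258) for ADAMTS1 and -3.28 (SE 0.34, adjusted p = 0.000179) for PLXNB3. Without the replicate block ADAMTS1 had an adjusted p of 0.00210 and PLXNB3 of 0.148. These fold changes take each response against its own set at 30 dyne/cm2, so the gap between the sets enters them. Set 2 against set 1 had -2.52 for ADAMTS1 and 0.76 for PLXNB3 (log2). Against the other set, both genes kept the call at 2 dyne/cm2 (-3.15 and 1.31). Neither was called at 80 dyne/cm2 against the other set, where ADAMTS1 had 0.22 (edgeR, adjusted p = 0.902). PLXNB3 had fewer reads, with 0.369 to 15.5 CPM over the 12 libraries.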

How the results depend on the processing

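The medians over the 10 genes kept their direction under every alternative run. With a pseudocount of 1 CPM and with the other set, they were -0.61 and -0.59 under low WSS and 0.21 and 0.18 under supra-high WSS. Leaving out each replicate in turn gave -0.99 to -0.77 and 0.19 to 0.48. A sign change of a single member was counted only where its main mean was larger than its SD. Members turned in 1 such case, SEMA7A at 2 dyne/cm2 against the other set (0.079). They moved by more than 1 SD in 11 of 200 values, 6 with the other set and 5 with the pseudocount. Means within 1 SD of 0 also changed sign in places and were not counted as turned. Over the alternatives, the named pathway genes that were called kept the call in 128 values and lost it in 29, and those not called stayed so in 119 values and gained a call in 1. The calls lost with a replicate left out were FLT4, MICAL1, SEMA4C and SEMA4G at 2 dyne/cm2 and PLXNA4 and PLXNB3 at 80 dyne/cm2. PLXNC1 could not be tested there, since it did not pass the filter on low counts. The number of genes called at 2 dyne/cm2 was 1078, and it was 635 with no replicate block and 2895 by adjusted p alone, with 13, 8 and 35 pathway genes. The number at 80 dyne/cm2 was 246, and it was 0 with no replicate block, 125 with the dispersion of 12 libraries, 24 against the other set and 940 by adjusted p alone. The number of pathway genes there was 3, and it was 0, 0 and 12 with no block, the other set and adjusted p alone. Between the sets 1 gene was called, and the number was 66 with DESeq2, 46 with no filter, 0 with no replicate block, 0 with the dispersion of 12 libraries and 2 by adjusted p alone. The number of pathway genes whose responses differed was 38, and it was 20 with no block and 23 with the other set. With each replicate left out in turn, the counts were 721 to 1001 and 132 to 286 over all genes at 2 and 80 dyne/cm2, 10 to 15 pathway genes at 2 dyne/cm2, 0 to 62 genes between the sets and 25 to 29 pathway genes for the responses. The cause was not tested. Counting error weighs most on SEMA3A and SEMA6A, which had at most 49 and 55 reads in any library.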
